A study of Homo sapiens with 8 samples.

Results

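The genes described here encode the mTOR complexes (MTOR, MLST8, RPTOR, RICTOR, DEPTOR), the TSC complex (TSC1, TSC2) and folliculin with its partners (FLCN, FNIP1, FNIP2). All rows of the deposited list of m6A peaks whose gene symbol is one of these 10 were taken, which gave 21 of 22626 peaks. They fell on 9 of the 10 genes. No peak was listed for TSC2, and no peak under any other gene name lay within the annotated TSC2 span. A gene without a listed peak is not shown to lack m6A or expression.

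The cells were HCT116, a human colorectal cancer line, with either a stable short hairpin RNA knockdown of ALKBH5 (shALKBH5) or a non-targeting control hairpin (shNC, labelled wild type). The ALKBH5 enzyme erases N6-methyladenosine (m6A), a methyl mark on adenosines in RNA. Fragmented poly(A) RNA bound by an antibody against m6A (IP) was sequenced beside unselected fragments (input), with 2 libraries in each of 4 groups, 8 in all. The values analysed are the authors' own, 1 enrichment and 1 fold per peak over the whole series, so no value below carries a replicate error and the depth behind it is unknown. The deposited log2 fold compares the knockdown and control arms, but which of them is on top was not given in the sources used here. Folds are therefore described by their sign alone, without saying in which arm a peak was higher. No source used here says if a fold takes transcript level into account, so m6A and transcript level cannot be told apart. ALKBH5 had 3 listed peaks with log2 folds of -1.43, -0.93 and -1.25 per the authors' deposited table, none with a false discovery rate (FDR) at or under 0.05, and its level, and so the knockdown, was not checked here. Of 10 colorectal epithelium markers, 5 had a listed peak (CDH1, CDX2, EPCAM, KRT8, KRT18), against 1 of 6 fibroblast markers (COL1A1), 0 of 5 leukocyte markers and 2 of 3 neural markers (GFAP, TUBB3).

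mTOR is a protein kinase that couples nutrients and growth factors to protein synthesis, growth and autophagy. It works in complexes that share the subunit mLST8: mTORC1, defined by Raptor, and mTORC2, defined by Rictor. The TSC complex switches off the small GTPase Rheb, which activates mTORC1 at the lysosome, while folliculin and its partners FNIP1 and FNIP2 act on the RAG GTPases that bring mTORC1 there. DEPTOR binds mTOR and was described as an inhibitor of both complexes. In colorectal cells this pathway lies downstream of growth factor and PI3K signalling.

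Of the 21 peaks, 2 passed an FDR of 0.05 per the authors' deposited table, 1 positive on RPTOR and 1 negative on FNIP2. That is 9.52% of the 21, against 8.23% of all listed peaks, so called peaks were about as common on these genes as in the list as a whole. At an FDR of 0.01, 0 of the 21 passed, against 4.99% of all listed peaks. With p doubled and adjusted again, 0 passed, against 6.36%. With the folds recentred, by subtracting the median of all listed peaks, 1 passed, against 7.79%. With overlapping peaks merged to the 1 with the smallest p, 2 of the 20 kept passed, against 8.39%. The list also gives a log10 p for each peak itself, used here as its strength. Among strong peaks, with a log10 p at or under -5, 1 of 12 passed, against 11.5%. Among all listed peaks 5.74% were called with a positive and 2.49% with a negative fold. The deposited log2 folds were positive for 11 peaks, negative for 9 and 0 for 1. Their median was 0.00659, with quartiles of -0.38 and 0.54, against a median of 0.14 and quartiles of -0.52 and 0.79 over all listed peaks. The other 19 peaks, on MTOR, MLST8, RPTOR, RICTOR, DEPTOR, TSC1, FLCN and FNIP1, did not pass, which does not show that they were alike in the arms.

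**Figure D1:**
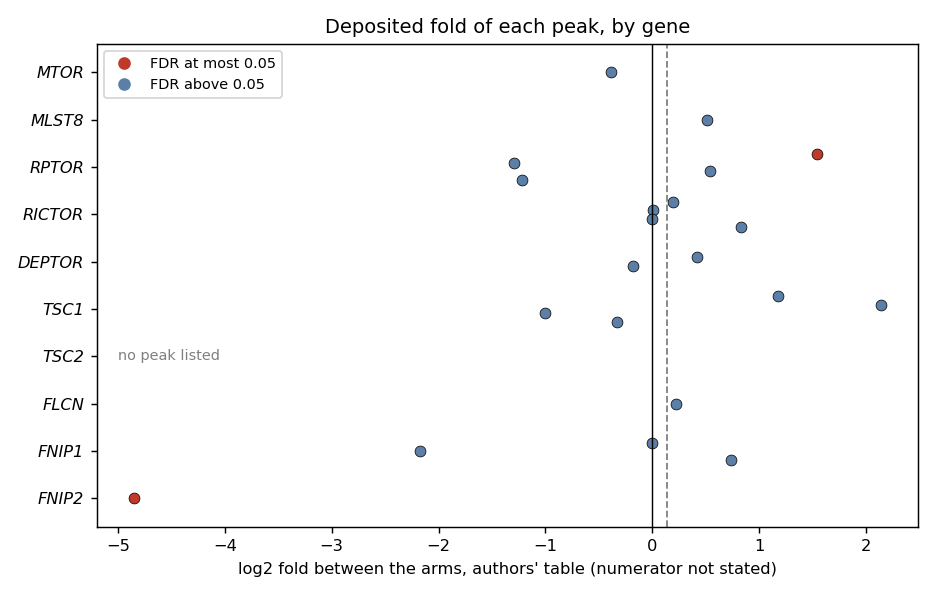
Each point is 1 peak, with its log2 fold between the arms on the x axis and its gene on the y axis. Red points passed an FDR of 0.05, the solid line marks 0 and the dashed line the median of all listed peaks (0.14). The called FNIP2 peak stands alone at -4.85, while the called RPTOR peak at 1.54 lies on a gene with 2 negative peaks.

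MTOR, the kinase that both complexes are built around, carried 1 peak near its 3′ end. It covers chromosome 1 positions 11106894 to 11108204 (GRCh38, minus strand) in blocks of 607 and 24 bases, and its centre lies 1014 bases from the annotated 3′ end. The authors' deposited table gives it an enrichment of 20.9-fold, at percentile 84.2 of all listed peaks. Its log2 fold was -0.38 (FDR 0.570) per the authors' deposited table.

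MLST8, the β-propeller subunit common to mTORC1 and mTORC2, had the strongest peak of the set by p-value. The log10 p of that peak was -137 per the authors' deposited table, yet its enrichment of 6.63-fold was below the median of 10.1-fold over all listed peaks. It lies at positions 2208707 to 2209154 of chromosome 16 (plus strand), centred 523 bases from the 3′ end. Its log2 fold was 0.52 with an FDR of 0.129 per the authors' deposited table. It passed only when the unadjusted p of 0.0166 was set against 0.05, which 19.9% of all listed peaks did.

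RPTOR encodes Raptor, the scaffold through which mTORC1 binds its substrates. Its 4 peaks formed 1 pair at each end of a gene that spans 421531 bases. The called peak was the most 5′ of them, at positions 80544879 to 80545328 of chromosome 17 (plus strand), centred 266 bases after the annotated start. It had an enrichment of 4.75-fold, a log2 fold of 1.54 and an FDR of 0.0355 per the authors' deposited table. The next peak, at 80545568 to 80545687, had an enrichment of 2.11-fold, the lowest of the 21, and a log2 fold of -1.29 (FDR 0.269) per the authors' deposited table. Thus the neighbouring peaks at the 5′ end had folds of opposite sign, and the test of their difference was not run since it needs values per library.

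The RPTOR pair at the 3′ end was more enriched and also had both signs. The peak at 80965353 to 80965892 had an enrichment of 12.9-fold and a log2 fold of 0.54 (FDR 0.585), and the peak at 80966131 to 80966371 had 15.3-fold and -1.22 (FDR 0.499), per the authors' deposited table. Neither passed. The call at the 5′ end was lost with p doubled and adjusted again (FDR 0.0709) and with the folds recentred on the median of all listed peaks (FDR 0.064). Among all listed peaks centred within 1000 bases of a 5′ end 11.1% were called, 7.41% with a positive fold.

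The start of RPTOR is shown because its called peak begins there. The sequence is the RefSeq promoter window chr17:80544588-80544887 (GRCh38.p14, plus strand), 250 bases before and 50 after the annotated start, with the 9 bases that belong to the called peak in capitals.
RPTOR: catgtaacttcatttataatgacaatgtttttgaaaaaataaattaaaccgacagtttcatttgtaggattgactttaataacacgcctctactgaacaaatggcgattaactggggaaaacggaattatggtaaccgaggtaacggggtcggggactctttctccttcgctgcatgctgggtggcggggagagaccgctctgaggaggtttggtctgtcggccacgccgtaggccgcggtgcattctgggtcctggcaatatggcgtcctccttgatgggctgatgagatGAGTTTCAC
The peak starts 41 bases after the annotated start, so the window holds its edge and not its centre. GGACT, a frequent form of the m6A consensus, was searched on both strands. It occurred 1 time on the RPTOR strand, before the start, and 0 times on the opposite strand or in the 50 transcribed bases. Of 35116 RefSeq windows of this length, 25.3% held it on the strand of the gene, 44.2% on either strand, and 4.9% within the transcribed 50 bases. These letters say nothing about the rest of the peak, whose sequence was not used here.

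RICTOR, which defines mTORC2, had 4 peaks with the most even folds among the genes with 4. The most 5′ peak, at positions 38949950 to 38952323 of chromosome 5 (minus strand), had an enrichment of 55.7-fold, and the next, at 38941964 to 38942867, had 48.1-fold, in the authors' deposited table. These stand at percentiles 98.8 and 98.3 of all listed peaks. Their log2 folds were 0.19 and 0.00659 (FDR 0.649 and 0.695) per the authors' deposited table. The remaining peaks, of 121 bases each, start at 38941754 and 38941574 and were weak, with enrichments of 3.38-fold and 4.13-fold and log2 folds of 0.00 and 0.83 per the authors' deposited table. No RICTOR peak had a negative fold as deposited, and none passed.

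Folds within a gene spread over 2.83 log2 units for RPTOR and 3.14 for TSC1, against 0.83 for RICTOR. Over the 606 genes with exactly 4 listed peaks, the median spread was 2.01, with quartiles of 1.39 and 2.83. The RICTOR spread exceeded that of 9.57% of those genes, and the RPTOR and TSC1 spreads exceeded 74.8% and 81.7%. Peaks of both signs on 1 gene were usual, in 492 of the 606 genes (81.2%). Having 4 peaks was less usual: 9.49% of all genes in the list had 4 or more, against 3 of the 9 genes with a peak here. That count makes no allowance for gene length or for weak peaks, so it does not show denser m6A on these genes.

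DEPTOR had 1 peak at each end. The peak at positions 119873747 to 119873926 of chromosome 8 (plus strand), centred 115 bases after the annotated start, had an enrichment of 14.6-fold and a log2 fold of 0.42 (FDR 0.710) per the authors' deposited table. It overlaps a listed peak of an unnamed gene model on the opposite strand, with a log2 fold of -0.34 per the authors' deposited table, so its assignment to DEPTOR is uncertain. The peak at 120049635 to 120049933, centred 1134 bases from the 3′ end, had 16.9-fold and -0.18 (FDR 0.708) per the authors' deposited table. Both DEPTOR folds thus lay near the centre of the whole list. No other peak of the 21 overlapped a listed peak of another gene.

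TSC1 encodes hamartin, which stabilises the GTPase-activating subunit tuberin, the product of TSC2. All 4 TSC1 peaks lay within 5 kilobases of the annotated 3′ end by their centres, the farthest at 4976 bases. The most 5′ of them, at positions 132896025 to 132896625 of chromosome 9 (minus strand), was the most enriched peak of the set at 96.8-fold in the authors' deposited table, and 43 of all listed peaks were more enriched. Its log2 fold was 1.18 (FDR 0.570) per the authors' deposited table, and it did not pass.

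The other TSC1 peaks were of mixed sign. The peak at 132893027 to 132893147 had a log2 fold of 2.14 (FDR 0.585), the largest positive one of the 21, at an enrichment of 6.75-fold in the authors' deposited table. The peak at 132892667 to 132892817 had -1.0 (FDR 0.673) at 5.91-fold, and the peak at 132891498 to 132891978 had -0.33 (FDR 0.692) at 23.6-fold, in the authors' deposited table. A fold of 2.14 without a call and one of 1.54 with a call show that size alone did not set the calls.

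FLCN encodes folliculin, a GTPase-activating protein for the RagC and RagD GTPases. Its 1 peak, at positions 17213050 to 17214986 of chromosome 17 (minus strand), has blocks of 807 and 2 bases and is centred 1806 bases from the 3′ end. It had an enrichment of 10.6-fold, near the median of the list, and a log2 fold of 0.22 (FDR 0.643) per the authors' deposited table.

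FNIP1 and FNIP2 are paralogous partners that bind folliculin and AMP-activated protein kinase, and their peaks differed in number and strength. FNIP1 had 3 peaks. The most 5′ of them, at positions 131671568 to 131672916 of chromosome 5 (minus strand), is 1 block of 1349 bases, longer than 98.2% of listed peaks. Its enrichment was 70.9-fold, with 121 listed peaks more enriched, and its log2 fold was -0.00395 (FDR 0.687) per the authors' deposited table. The most enriched FNIP1 peak was therefore also the one with a fold nearest 0. The FNIP1 peaks at 131651872 to 131651992 and 131644441 to 131644651 had log2 folds of -2.17 (FDR 0.649) and 0.74 (FDR 0.70) at 10.7-fold and 14.1-fold in the authors' deposited table.

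FNIP2 had 1 peak, and it was called. It lies at positions 158904609 to 158904819 of chromosome 4 (plus strand), centred 3336 bases from the annotated 3′ end. The authors' deposited table gives a log2 fold of -4.85 (FDR 0.038), which ranks 3 from the lowest of the 22626 listed peaks, and an enrichment of 9.56-fold. The log10 p of the peak was only -2.53 per the authors' deposited table. Of the 7258 listed peaks with a log10 p above -5, 1.28% were called and 0.289% were called with a negative fold. The call was lost with p doubled and adjusted again (FDR 0.0759). It was kept with the folds recentred (FDR 0.033). Recentring moves every negative fold further from 0, here to -4.99, so it could not weaken this one and is no check of the call.

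Enrichment of IP over input was somewhat higher on these genes than in the whole list, with no test made of the difference. The median of the 21 peaks was 12.9-fold with quartiles of 6.63 and 20.9, against 10.1-fold with quartiles of 4.96 and 16.3 over all listed peaks. Among peaks with a log10 p at or under -5 the median was 18.9-fold, against 11.3-fold over all such listed peaks. Among weaker peaks the order was the other way, at 6.75-fold against 8.44-fold. The peaks of TSC1, FNIP1 and RICTOR at 96.8-fold, 70.9-fold, 55.7-fold and 48.1-fold stood above all others of the set. None of these 4 passed the FDR of 0.05. The called peaks of RPTOR and FNIP2 lay below the median of the list.

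**Figure D2:**
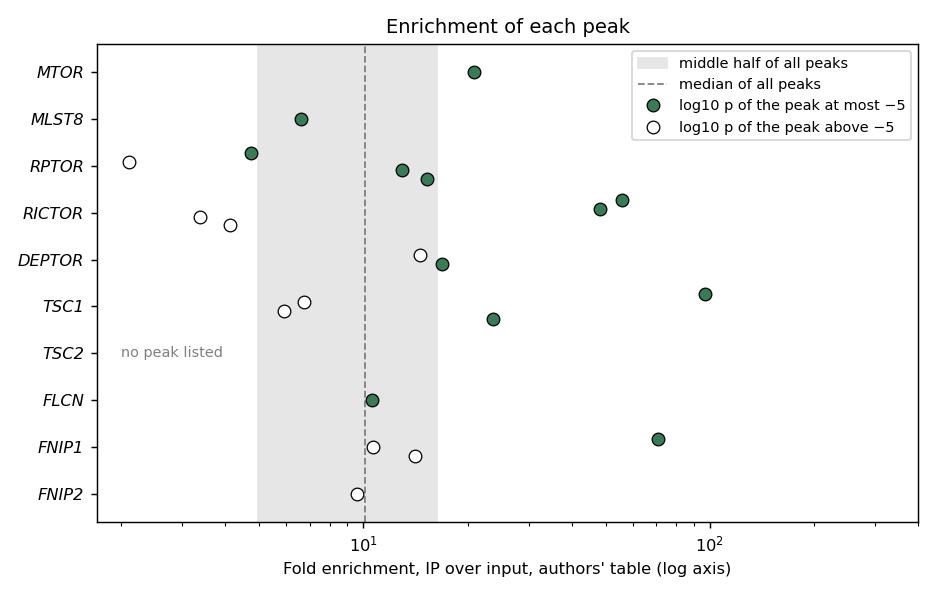
The x axis is the fold enrichment of each peak on a log axis and the y axis its gene, with filled circles for a log10 p of the peak at or under -5 and open circles above it. The grey band spans the quartiles of all listed peaks (4.96 to 16.3). TSC1, FNIP1 and RICTOR each hold a peak at 48.1-fold or more, and RPTOR the lowest at 2.11-fold.

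As a share of gene span the peaks lay nearer the 3′ ends than listed peaks in general, but not when counted in bases. Measured along the annotated gene span, 16 of 21 (76.2%) were centred in the last 10% of that span, against 38.8% of the 20328 listed peaks that could be placed in a gene of the same symbol. Since most of these genes are long, the share was also taken over genes that span at least 50000 bases. It was 15 of 19 (78.9%) for the set and 49.3% of 8272 listed peaks. Genes were not matched for length beyond that floor, so an effect of gene length on this share was not tested. In bases, 4 of 21 (19.0%) lay within 1000 bases of the 3′ end, against 20.1% of placed peaks, and 3 of 21 (14.3%) lay within 1000 bases of the 5′ end, against 8.90%. Those 3 were the DEPTOR peak and the 2 RPTOR peaks at the start. Distances are genomic and include introns, and bounds of coding and untranslated sequence were not used here.

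**Figure D3:**
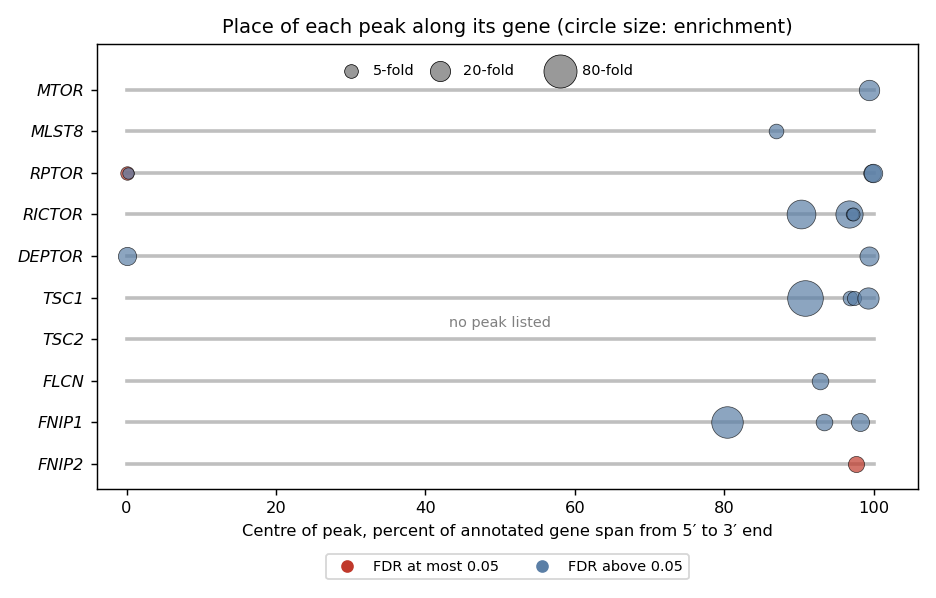
Each grey line is 1 gene, drawn from its annotated 5′ end (0) to its 3′ end (100 percent of the span), and each circle is the centre of a peak, with its size growing with enrichment and red for an FDR at or under 0.05. Of 21 peaks 16 sit in the last 10% of the span, with RPTOR and DEPTOR the genes that also have peaks at the start.

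Weak peaks in this set had larger folds than strong ones by their median. The 12 peaks with a log10 p at or under -5 had a median absolute log2 fold of 0.36 and ranged from -1.22 to 1.54, while the 9 weaker ones had a median of 1.0 and ranged from -4.85 to 2.14. The same order held over all listed peaks, at 0.59 for 15368 strong and 0.85 for 7258 weak peaks. Weak peaks made up 42.9% of the 21, against 32.1% of the list. An absolute log2 fold over 1 was found for 3 of the 12 strong peaks (25%), 1 on TSC1 and 2 on RPTOR, against 27.8% of all strong peaks. It was found for 4 of the 9 weak ones (44.4%), against 40.9% of all weak peaks. Both shares were thus near those of the whole list.

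**Figure D4:**
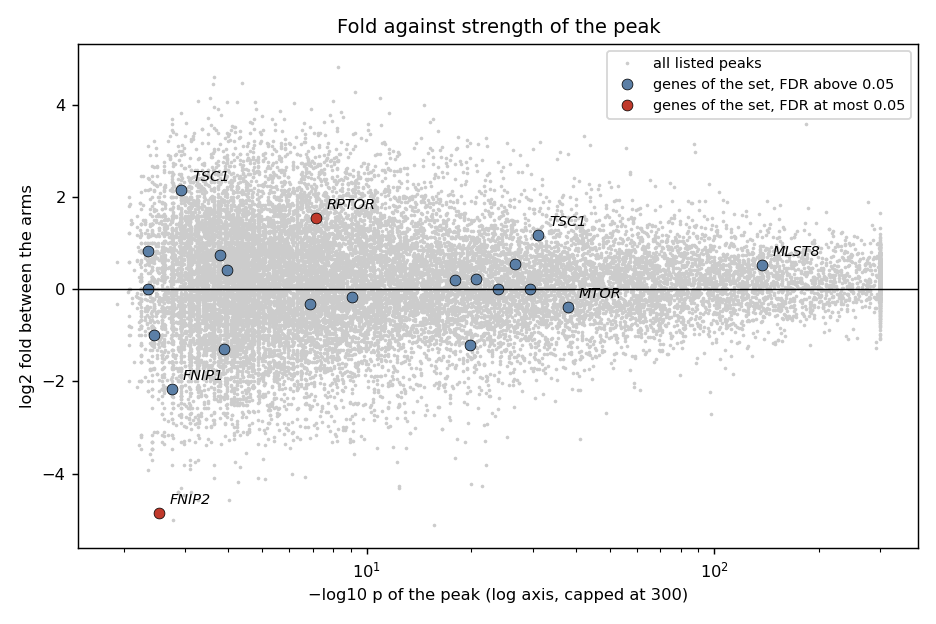
The x axis is the −log10 p of each peak on a log axis (capped at 300) and the y axis its log2 fold between the arms, with all 22626 listed peaks in grey and the 21 peaks of these genes in blue or, where called, red. The spread of the grey points narrows towards strong peaks, and FNIP2 lies at the weak edge with a fold of -4.85.

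Other genes of the pathway were taken as 9 lists by role, 72 genes in all, of which 60 had 100 listed peaks. Of the 100 peaks 9 were called, which is 9% against 8.23% of all listed peaks. A positive fold was found for 3 of them and a negative one for 6, where all listed peaks had 5.74% called positive and 2.49% called negative. Recentring, which lowers every fold, gave 2 positive and 7 negative. At an unadjusted p under 0.05 the order was the other way, with 17 positive and 11 negative. The median log2 fold was -0.0007, against 0.14 over all listed peaks. The lists were chosen with earlier results of these data known, and these counts are descriptions.

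Among other subunits and assembly factors of the mTOR complexes, 6 of 7 genes had 10 peaks, of which 2 were called (20%, against 8.23% of all listed peaks). PRR5 (Protor-1, a subunit of mTORC2) had 1 called peak, with a log2 fold of -3.31 (FDR 0.0033) per the authors' deposited table. MAPKAP1 (SIN1, also of mTORC2) had 4 peaks, all positive, of which 1 was called at 1.93 (FDR 0.0355) per the authors' deposited table. That MAPKAP1 peak overlaps a peak of an unnamed gene model on the opposite strand, and its call was lost with p doubled (FDR 0.0699) and with the folds recentred (FDR 0.0567). So the called mTORC2 subunits had folds of both signs, while RICTOR had no call. The uncalled TTI2, a subunit of the chaperone complex that stabilises mTOR, had 0.11 and 0.41 per the authors' deposited table.

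The 4 lists of the lysosomal and amino acid arms held 40 peaks, of which 3 (7.5%) were called, against 8.23% of all listed peaks. These 3 had negative folds, which 2.49% of all listed peaks had with a call. They came 1 each from the GATOR1 and KICSTOR, GATOR2 and amino acid sensor lists. The lists were planned separately and pooled only for this count, which is a description. Over called and uncalled peaks, the median log2 folds of the GATOR1 and KICSTOR list and of the GATOR2 list were 0.42 and 0.62. Of the RAG GTPases and Ragulator, 8 of 10 genes had 13 peaks and none was called, with the smallest FDR at 0.0871 and log2 folds between -1.24 and 0.98 per the authors' deposited table. LAMTOR2, a Ragulator subunit, had 3 of them, at -0.33, 0.01 and 0.12 per the authors' deposited table. NPRL3, a subunit of GATOR1, which switches off the RAG GTPases, had -1.34 (FDR 0.0055), but its peak overlaps one of MPG on the opposite strand (-1.45), per the authors' deposited table. SEC13, a subunit of GATOR2 and of coat and nuclear pore complexes, had -0.68 (FDR 0.00011), and the leucine sensor gene SESN2 had -0.95 (FDR 3.7e-06) in 1 of its 2 peaks, in the authors' deposited table. The GATOR2 gene WDR24 had 3 uncalled peaks, at 0.62, 0.79 and 0.70 per the authors' deposited table.

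RHEB and the list of upstream kinases and inhibitors had no call, and the called mTORC1 substrates and effectors had both signs. RHEB, the direct activator of mTORC1, had 1 peak at -0.63 (FDR 0.396) per the authors' deposited table. None of 12 peaks on AMP-activated protein kinase subunits, STK11, DDIT4 and DDIT4L passed, against 8.23% of all listed peaks. Among these, PRKAA1 had 3 peaks at -0.04, -1.71 and -0.24 per the authors' deposited table. The DDIT4 peak, at a log2 fold of -0.08 (FDR 0.309) as deposited, passed only with the folds recentred, at -0.22 (FDR 0.0013). Recentring moves every negative fold further from 0 by construction, so that pass is no evidence of a difference. Among mTORC1 substrates and effectors, 14 of 17 genes had 28 peaks and 4 were called (14.3%, against 8.23% of all listed peaks). EIF4EBP1, the translation repressor 4E-BP1, had -0.52 (FDR 0.002), and MAF1, a repressor of RNA polymerase III, had -0.57 (FDR 3.9e-05) in 1 of 3 peaks, in the authors' deposited table. RPS6, the ribosomal protein phosphorylated by S6 kinase, had 0.97 and 0.84 in its 2 peaks, with FDRs of 4e-34 and 3.2e-34 per the authors' deposited table. LARP1, a repressor of ribosomal protein mRNA translation, had 5 peaks, all negative between -0.59 and -0.04 and none called, in the authors' deposited table.

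**Figure D5:**
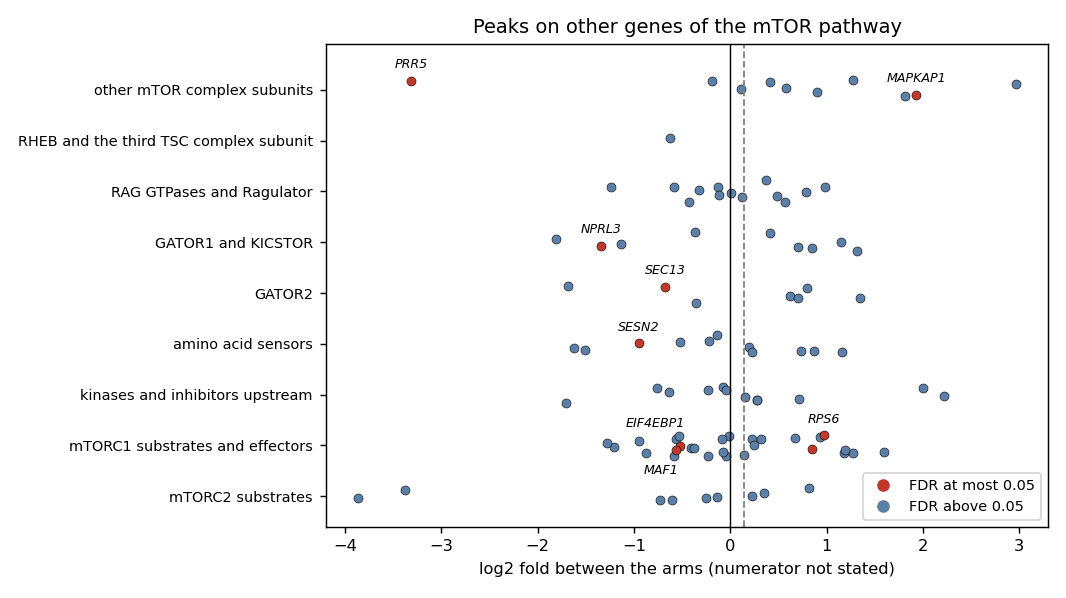
Each point is 1 of 100 peaks on other pathway genes, with its log2 fold between the arms on the x axis and its role list on the y axis, red where the FDR was at or under 0.05. The solid line marks 0 and the dashed line the median of all listed peaks (0.14), and the 9 called peaks lie between -3.31 for PRR5 and 1.93 for MAPKAP1.

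Of the mTORC2 substrates, 6 of 7 genes had 9 peaks and none was called, against 8.23% of all listed peaks. So few peaks can show no call at that share. SGK1, a kinase that mTORC2 activates and a gene chosen after its values were seen, had the lowest folds of all the lists, -3.86 and -3.38, with FDRs of 0.294 and 0.269 per the authors' deposited table. AKT1 had 0.34 and -0.25, and AKT2 had -0.74 and -0.60, per the authors' deposited table.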

How the data were processed

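The authors deposited 1 list of peaks for the 8 libraries, with no value per library. BWA 0.7.12, HOMER 4.9.1 and GRCh38 appear in the submitters' processing notes, without their roles, and the peak caller was not given in the sources used here. Per the labels, more than 1 anti-m6A antibody is named. The deposited columns used are, per the file headers, the p-value of each peak, scores that are log10 p and FDR, the fold enrichment (a linear ratio, taken to be of IP to input) and the log2 fold between the arms. The sources used here do not say how many sides that p has, nor whether replicates were separate cultures. It never exceeded 0.773, with a median of 0.565 over the 1009 peaks whose log2 fold lay within 0.05 of 0, so p doubled and adjusted again (Benjamini-Hochberg, over all peaks) was an alternative.

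Called means a deposited FDR at or under 0.05. Starts are given 1-based. Positions use RefSeq GRCh38.p14, matched by symbol, and promoter windows matched 8 of the 10 genes. To recentre folds, the median of all peaks was subtracted, with a standard error from fold and p (read as one-sided, p under 0.3, 11573 peaks) and predicted elsewhere from the strength, enrichment and length of the peak. Scripts were tested on simulated data. Planned tests per library were not run, since they need values per library. Named genes are all members, each called gene of the pathway lists and up to 2 uncalled genes per list with the most peaks. Of the genes that this rule takes, 1 is not reported here. KICS2 and SAMTOR are listed under older symbols (C12orf66, BMT2). Members and lists were chosen with earlier results of these data known. Python 3.11.15, numpy 2.4.6, pandas 2.3.3 and scipy 1.17.1 were used.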

Additional observations from a re-analysis of the deposited data

How the results depend on the processing

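The count of called peaks on the mTOR, TSC and folliculin genes, 2 as reported, fell to 0 at an FDR of 0.01 and to 0 with the authors' p doubled and adjusted again, and was 3 at an unadjusted p under 0.05 in the authors' deposited table. It was 1 with the folds recentred (FNIP2) and 1 among peaks with a log10 p at or under -5 (RPTOR), since the weaker FNIP2 peak is not in that list. Recentring lowers every fold, so the negative FNIP2 fold moved further from 0 and the positive called RPTOR fold moved towards it, by construction. Merging overlapping peaks left it at 2. For the other pathway genes 28 of 100 peaks (28%) had an unadjusted p under 0.05, against 19.9% of all listed peaks and 9 called, and the count was 8 or 9 under the other alternatives, of which recentring and merging were added after the data were seen. Those 28 peaks were 17 positive and 11 negative. Of the 21 peaks, 12 had a log10 p at or under -5, with a median log2 fold of 0.10 in place of 0.00659, while 1 peak per gene gave 0.00659. The median enrichment was 18.9-fold among the strong peaks, against 11.3-fold over all strong listed peaks. With 1 peak per gene it was 16.9-fold, and no value over all listed peaks is given for that choice. The RICTOR peak at 0.00659 changed sign, to -0.13, with the folds recentred, by construction. Leaving out a replicate was not run. No paired analysis was possible because the deposited list holds no values per library. Depth limits could not be set for the same reason.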

Other observations

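Many weak peaks of the list carry identical values. Of the 9 weak peaks on these genes, 8 shared both their p and their enrichment with at least 1 other listed peak, as did 73.6% of all weak peaks and 23.3% of all strong ones. The FNIP1 peaks at 10.7-fold and 14.1-fold shared their values within groups of 227 and 157 listed peaks, and the DEPTOR peak at the start within a group of 152. The FNIP2 peak shared its p and enrichment with 2 other listed peaks, where the authors' deposited table has log2 folds of -1.0 and -0.17, next to the -4.85 of FNIP2. Peaks with the same strength and enrichment thus had very different folds between the arms, and the counts behind them were not analysed here.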
